A study of Mus musculus with 224 samples.

Results

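The livers of DBA/2J mice after 33 days on a high-fat diet (HFD) were compared with those of DBA/2J mice kept on chow (RC) for the same time. The 8 livers, 4 on HFD and 4 on RC, were chosen by the labelled strain, organ, diet and day. They were 8 of the 72 liver libraries with a column in the liver table. The strain is spelled DBA/2JJ on the samples and DBA/2J in the design text. The design text lists day 5 and, for both later times, day 13, while the samples are labelled day 33, and the sample labels were followed. The animals are called by their labels, 2HF208 to 2HF211 on HFD and 2RC208 to 2RC211 on RC. The same inbred strain was sampled on days 5 and 13, and C57BL/6J and BALB/cJ on day 33, again with 4 livers per diet. The labels name no altered gene and no drug for any of these groups. The labels give no sex, age, diet composition or hour of collection. They do not say whether the 4 livers of a group came from separate cages. The p-values therefore measure the spread between livers within groups, taken from all 72 liver libraries and not from these 8 alone.

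Liver takes up dietary fatty acids and either burns them or packs them into triglyceride. The nuclear receptor PPARA binds fatty acids and turns on genes for their oxidation in peroxisomes and mitochondria, for their omega-oxidation by the Cyp4a enzymes, and for ketone bodies. SREBP2 drives the genes of cholesterol synthesis and uptake when sterol in the endoplasmic reticulum is low, and SREBP1c drives fatty acid synthesis when insulin is high. The circadian clock is a loop in which CLOCK and ARNTL switch on Per and Cry genes, whose proteins then repress CLOCK and ARNTL. Many liver genes of lipid, bile acid and glucose metabolism follow this daily loop and feeding.

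Expression was measured by poly(A) RNA sequencing, and each value is a log2 of reads scaled to library size (log2 CPM), not corrected for gene length, so levels are compared between animals and not between genes. The libraries held 18.8 to 24.4 M reads on HFD and 19.8 to 24.1 M on RC. Ddx3y, a gene of the Y chromosome, stood between 5.56 and 6.12 log2 CPM in all 8 livers. The 10 hepatocyte markers summed to 95280 to 114170 CPM on HFD and 111030 to 126920 CPM on RC, and 3 of them fell. Those were Tat, Cps1 and Ass1, enzymes of amino acid breakdown and the urea cycle. The other 7, Alb and Apob among them, did not pass. Animal 2HF211 stood apart: its mean correlation with the other HFD livers was 0.950, against 0.965 to 0.971 for the other 3 and 0.972 to 0.982 within RC. Its cholangiocyte markers summed to 143 CPM against 33.9 to 47 CPM in the other 7 livers, and its T, natural killer and B cell markers to 68.9 CPM against 11.6 to 27.0. The 6 measured adipocyte markers summed to 2.79 to 18.2 CPM on HFD and 7.84 to 62.1 CPM on RC, highest in animals 2RC210 and 2RC211, and none passed the test. In a bulk liver, fewer cells of a type and less RNA per cell cannot be told apart.

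**Figure D1:**
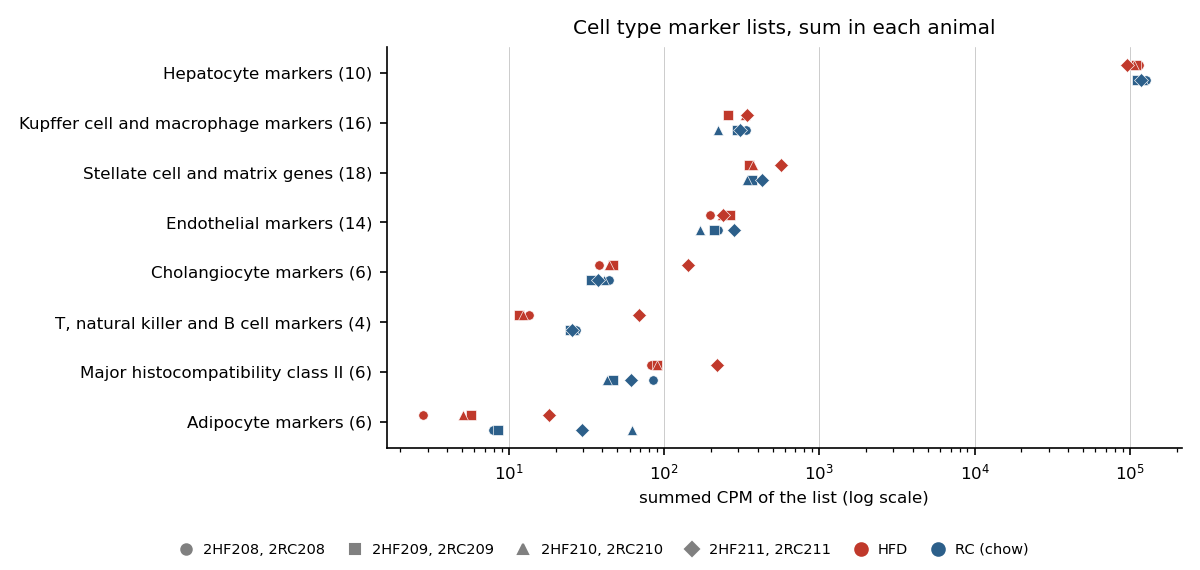
Summed CPM (log axis) of cell type marker lists in each of the 8 day-33 DBA/2J livers, with the number of measured markers in brackets, HFD in red, RC in blue and 1 symbol per animal number. Animal 2HF211 lies apart on the cholangiocyte (143 CPM), lymphocyte (68.9 CPM) and class II (218 CPM) lists, and animal 2RC210 is highest on the adipocyte list (62.1 CPM).

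After 33 days, 15 of 20 genes of mitochondrial fatty acid oxidation and 5 of 6 of ketone synthesis and export rose in DBA/2J livers on HFD. Of the genes that fell, 20 were among 25 of cholesterol synthesis and uptake, 16 among 33 of amino acid breakdown and the urea cycle and 10 among 25 of drug-metabolising P450 enzymes. Of 12611 genes tested, 2005 changed at an adjusted p under 0.05 (15.9%), 908 upward (7.2%) and 1097 downward (8.7%). The fold exceeded 2 for 210 of the genes that rose and 342 of those that fell, and the median log2 difference over all genes was 0.004. The 4 HFD and 4 RC values did not overlap for 2400 genes (19% of those tested), 1097 with HFD above RC and 1303 below. Of the 2005 genes that changed, 1577 were among these. With each animal left out in turn, the count of changed genes ranged from 1537 (without animal 2RC211) to 1866 (without animal 2RC209), and it was 1740 without animal 2HF211.

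Among genes of at least median level, the widest rise was in the Cyp4a genes, which encode fatty acid omega-hydroxylases of the endoplasmic reticulum. Cyp4a14 (GRCm38 chromosome 4, 115486200 to 115496142, minus strand) stood at 11.48, 11.997, 11.62 and 11.38 log2 CPM in animals 2HF208 to 2HF211 and at 2.69, 2.76, 3.93 and 5.17 in animals 2RC208 to 2RC211. Every HFD value lay far above every RC value, and the RC livers themselves spread over more than 2 log2 units. The difference was 7.98 on the log2 scale (SE 1.26, adjusted p = 5.4e-06), higher on HFD. Its neighbour Cyp4a10 (chromosome 4, 115518264 to 115533649) stood at 9.90, 10.79, 10.20 and 10.09 on HFD and at 3.64, 3.31, 4.37 and 5.60 on RC, a 64.7-fold rise (adjusted p = 1.3e-05). Cyp4a31 rose 22-fold and Cyp4a32 4.3-fold. These neighbours are close copies of each other, and reads can be split between them, so the value of each single Cyp4a gene is uncertain.

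Outside the Cyp4a cluster, Acot1, Vnn1 and Fgf21 had the largest rises among genes of at least median level. Vnn1, the pantetheinase that releases cysteamine, rose 9.89-fold from 4.20 to 5.17 log2 CPM on RC to 7.81 to 8.13 on HFD. Fgf21, a fasting hormone secreted by liver, stood at 4.57, 6.79, 5.31 and 5.39 on HFD and 2.24, 2.54, 2.43 and 1.69 on RC, a 9.78-fold rise (log2 3.29, SE 0.69, adjusted p = 0.00043). Serpina7, the thyroxine-binding globulin, rose 5.81-fold, from 4.97 to 5.89 on RC to 7.48 to 8.49 on HFD. Serinc2 was tight within each diet, at 5.24, 5.48, 5.56 and 5.49 on HFD against 3.40, 3.33, 3.26 and 3.31 on RC, and rose 4.35-fold (adjusted p = 2.2e-09). Ndrg1 rose 5.01-fold and the tubulin gene Tubb2a 4.66-fold. Elovl3, an elongase of very long fatty acids, was 4.9-fold higher (adjusted p = 0.034), but this call was lost without any 1 of 6 of the 8 animals, with the highest adjusted p of 0.102 without animal 2HF208.

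The largest fall among genes of at least median level was in Thrsp, which promotes lipogenesis. Thrsp (chromosome 7, 97412938 to 97417730, minus strand) stood at 5.96, 3.85, 4.45 and 5.38 log2 CPM on HFD and 9.08, 10.47, 9.71 and 10.05 on RC. No HFD liver came within 3 log2 units of an RC liver, and the gene fell 30.2-fold (log2 -4.92, SE 0.65, adjusted p = 1.5e-07). Usp2, a deubiquitinase under clock control, fell 12.6-fold, with animal 2HF211 at 4.34 and the other 3 HFD livers between 1.91 and 2.45 against 6.26 to 6.55 on RC. Upp2, a uridine phosphorylase, fell 12.3-fold, and Noct, a rhythmic enzyme also called nocturnin, fell 8.12-fold, from 5.75 to 6.39 on RC to 2.64 to 3.78 on HFD.

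**Figure D2:**
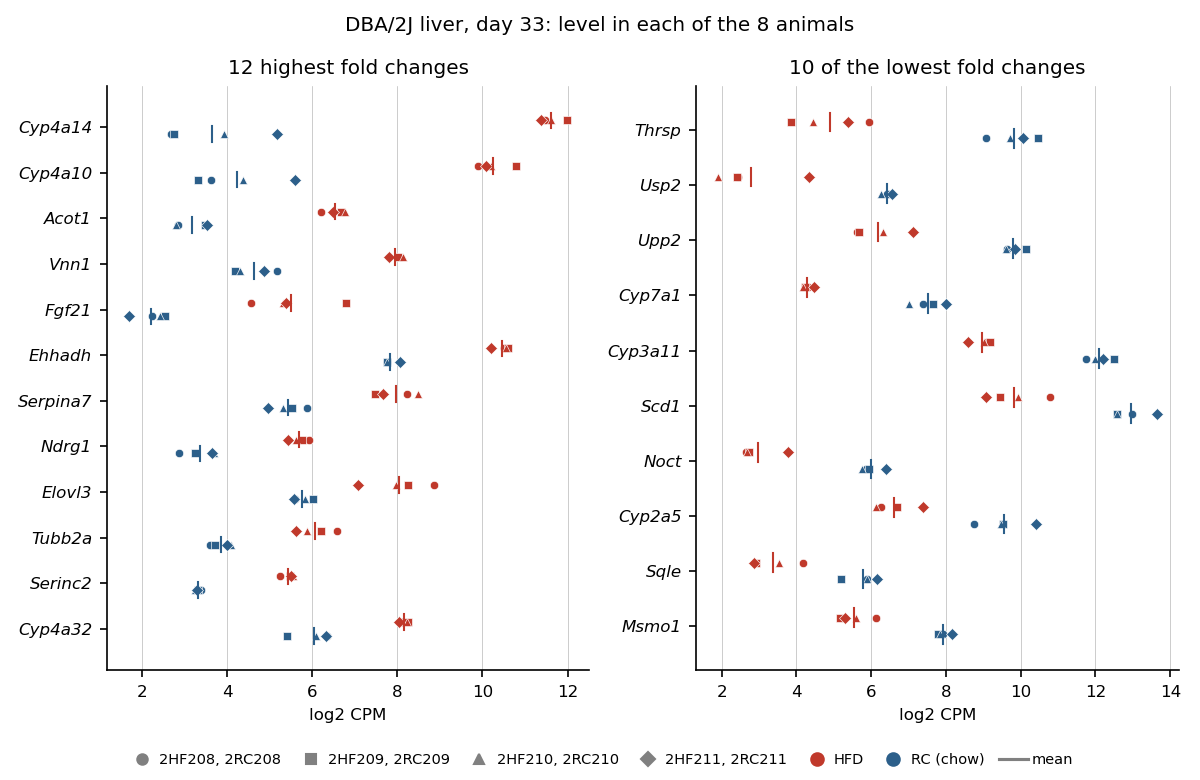
Level (log2 CPM) of the 12 genes with the highest and 10 of those with the lowest fold changes among called genes of at least median level whose diets do not overlap, with HFD in red, RC in blue, 1 symbol per animal number and a bar at each mean. Cyp4a14 and Cyp4a10 show the widest gaps upward and Thrsp the widest downward (log2 7.98, 6.02 and -4.92).

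Of 25 measured genes of PPARA-linked acyl handling, 16 rose and none fell, with a median log2 difference of 1.19 against 0.004 over all genes. Over all genes, 7.2% rose, as given above. Summed over the list, HFD livers stood at 23282 to 27498 CPM and RC livers at 10022 to 11409 CPM. The count that rose was 13 to 16 under every alternative tried. Ehhadh, the peroxisomal bifunctional enzyme (chromosome 16, 21761287 to 21787807, minus strand), stood at 10.50, 10.60, 10.55 and 10.20 on HFD and at 7.77, 7.77, 7.76 and 8.06 on RC. Both diets were tight, and the gene rose 6.16-fold (log2 2.62, SE 0.37, adjusted p = 5.7e-07). Acaa1b, the peroxisomal thiolase, rose 3.78-fold, and Aldh3a2, which oxidises fatty aldehydes, rose 4.1-fold, with HFD values of 9.41 to 9.58 and RC values of 7.16 to 7.85. Acot1, an acyl-CoA thioesterase of the cytosol, rose 10.3-fold from 2.80 to 3.54 up to 6.21 to 6.77. Its close copies differed: Acot2 rose 4.06-fold, while Acot3 (log2 0.55, adjusted p = 0.78) and Acot4 (log2 -0.11, adjusted p = 0.90) did not pass, and reads among these copies are uncertain.

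Several classical PPARA targets did not pass. Cpt1a, the gate of mitochondrial uptake, had a log2 difference of -0.28 (adjusted p = 0.41). Pdk4, the pyruvate dehydrogenase kinase, stood at 2.54, 2.72, 3.33 and 4.98 on HFD and 1.26, 2.80, 1.64 and 1.66 on RC, so the diets overlapped (log2 1.55, adjusted p = 0.19). Cd36, a fatty acid transporter, had a log2 difference of 1.02 (adjusted p = 0.24), Angptl4, an inhibitor of lipoprotein lipase, of -0.32 (adjusted p = 0.59), and Ppara itself of -0.31 (adjusted p = 0.39).

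Fabp1, the liver fatty acid-binding protein and a PPARA target, is the member of this list whose promoter held a direct repeat of the kind PPARA binds, so its promoter is shown. It is the RefSeq (GRCm38.p6) sequence of the 250 bases before the start, chr6:71199629-71199878, plus strand, with the match in capitals.

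Fabp1: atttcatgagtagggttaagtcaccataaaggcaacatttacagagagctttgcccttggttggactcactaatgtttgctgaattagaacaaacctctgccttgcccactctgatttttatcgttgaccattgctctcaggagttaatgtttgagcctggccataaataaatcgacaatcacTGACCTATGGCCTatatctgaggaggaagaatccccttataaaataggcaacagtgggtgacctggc

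The motif searched was 2 AGGNCA half-sites in the same direction with 1 base between them, on both strands. The match in the Fabp1 promoter lies on the reverse strand, 55 bases before the start. Of 18 promoters in the table for 16 genes of the list, 1 held this motif (5.56%), against 111 of 32851 promoters overall (0.338%). The motif was also in 1 of 21 promoters of the clock list (4.76%, that of Clock), so it was not particular to the PPARA-linked list. Fabp1 itself stood at 12.65, 12.44, 13.17 and 12.72 log2 CPM on HFD and at 12.06, 12.29, 11.90 and 11.53 on RC. The diets were next to each other without overlap, and the 1.74-fold rise (adjusted p = 0.0094) was lost without 2 of the animals, with the highest adjusted p of 0.0603 without animal 2RC211.

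Oxidation genes of peroxisomes and of mitochondria rose. Of 23 genes of peroxisomal lipid oxidation, 11 rose and 3 fell, with a median log2 difference of 0.57. Hsdl2, a peroxisomal dehydrogenase, rose 2.98-fold, and Ech1, a dienoyl-CoA isomerase, rose 2.24-fold. Crot, which hands medium-chain acyl groups from peroxisomes to mitochondria, stood at 10.02, 10.04, 10.51 and 9.77 on HFD and 8.19, 8.44, 8.20 and 7.99 on RC, a 3.68-fold rise (adjusted p = 2.7e-08). Crat, which does the same for short chains, rose 3.07-fold, and Acox2, the oxidase for bile acid side chains, 1.81-fold. Pecr and Acox3 fell by 0.38 and 0.35 on the log2 scale, the latter not by limma-voom (adjusted p = 0.0587), and the count of 3 that fell dropped to 1 without animal 2HF210, animal 2RC209 or animal 2RC211. Of 16 peroxisome assembly genes (peroxins), 1 rose (7.2% did over all genes), Pex6, with a log2 difference of 0.27. Its call was lost without any 1 of 6 of the 8 animals (highest adjusted p = 0.194, without animal 2HF208).

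In mitochondria, 15 of 20 fatty acid oxidation genes rose and none fell, with a median log2 difference of 0.72. Acadvl, the very-long-chain acyl-CoA dehydrogenase, stood at 9.21, 9.27, 9.25 and 9.23 on HFD and 8.53, 8.59, 8.43 and 8.44 on RC. The gap of 0.74 (SE 0.08, adjusted p = 1.4e-09) was far wider than the spread within either diet. Eci1, Hadhb and Acadl, enzymes of mitochondrial beta-oxidation, rose 2.55-fold, 2.06-fold and 1.96-fold. Etfdh, which passes on electrons from this pathway, rose 1.85-fold. None of the 32 nuclear genes of the respiratory chain passed, and their median was -0.02. Their sum was highest in 1 liver of each diet, 10058 CPM in animal 2HF210 and 10865 CPM in animal 2RC209, against 7700 to 8787 CPM in the other 6.

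Of 6 genes of ketone body synthesis and export, 5 rose. Bdh1, which interconverts the ketone bodies acetoacetate and beta-hydroxybutyrate, stood at 8.999, 8.98, 9.002 and 9.02 on HFD and 8.47, 8.21, 8.33 and 8.28 on RC, a 1.6-fold rise (SE 0.14 on the log2 scale, adjusted p = 0.00035). The HFD livers were nearly level with each other, all above the RC livers. Acat1, the mitochondrial thiolase, and the exporter Slc16a1 rose 1.83-fold and 1.67-fold. Around the lipid droplet, 4 of 16 genes rose and none fell. They were Plin2, which coats the droplet (2.21-fold), the droplet dehydrogenases Hsd17b11 (log2 1.33) and Hsd17b13 (log2 0.37), and Fitm1 (log2 1.05, a call lost by limma-voom with adjusted p = 0.0528). The count was 2 without animal 2HF209, animal 2HF210, animal 2RC210 or animal 2RC211. Of 20 lipoprotein genes, Mttp, which loads lipid onto apolipoprotein B, rose (log2 0.37) and Apoc3 fell by 0.66. Neither count exceeded the share over all genes (7.2% rose and 8.7% fell). The Apoc3 call was lost without animal 2RC209 (adjusted p = 0.0689).

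**Figure D3:**
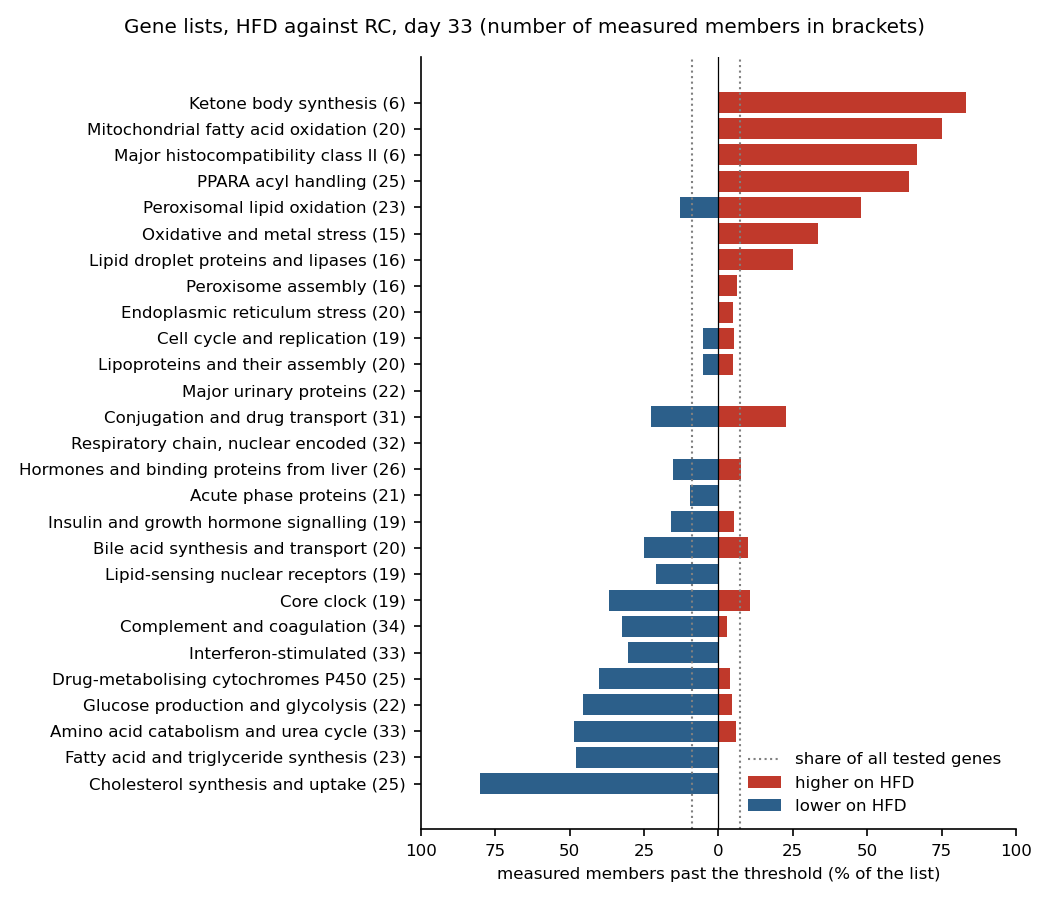
Share of the measured members of each pathway list that passed the test (percent of the list, higher on HFD to the right in red and lower to the left in blue), with dotted lines at the shares over all tested genes (7.2% and 8.7%). Ketone synthesis (5 of 6 higher) and mitochondrial oxidation (15 of 20 higher) stand at the top and cholesterol synthesis and uptake (20 of 25 lower) at the bottom.

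Genes of cholesterol synthesis and uptake moved the other way. Of 25 genes, 20 fell and none rose, all 25 estimates were below 0, and the median was -1.14 on the log2 scale. Over all genes, 8.7% fell, as given above. The list summed to 1383 to 2059 CPM on HFD and 3064 to 3710 CPM on RC, and 17 to 23 members fell under the alternatives tried. Msmo1, a sterol methyl oxidase (chromosome 8, 64718139 to 64733792, minus strand), stood at 6.12, 5.17, 5.61 and 5.29 on HFD and 7.92, 7.78, 7.85 and 8.17 on RC. All HFD livers lay below all RC livers, and the gene fell 5.22-fold (log2 -2.38, SE 0.42, adjusted p = 4.1e-05). Sqle, the squalene epoxidase, stood at 4.17, 2.91, 3.53 and 2.87 on HFD and 5.90, 5.205, 5.89 and 6.16 on RC, a 5.34-fold fall (adjusted p = 0.0013). Lss, which closes the sterol rings, fell 2.85-fold.

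Insig1, the sterol-sensing brake on SREBP, fell 2.62-fold. Animal 2HF208 was the highest HFD liver for Sqle, Msmo1 and Insig1. Members that did not pass were Srebf2 itself (log2 -0.31, adjusted p = 0.23), Hmgcs1 (log2 -0.47, adjusted p = 0.44), Acat2, Fdft1 and Sc5d. The sterol element TCACNCCAC, searched on both strands, was in 1 of 20 promoters of 17 genes of this list (5%, that of Hmgcs1), against 1.05% of all promoters. It was also in 1 of 18 promoters of the PPARA-linked list (5.56%, that of Ehhadh), so it was not particular to the sterol genes.

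Of 23 genes of fatty acid and triglyceride synthesis, 11 fell and none rose, and the list summed to 3439 to 5926 CPM on HFD against 11858 to 19258 CPM on RC. The count was 7 without animal 2RC211. Scd1, the stearoyl-CoA desaturase (chromosome 19, 44394455 to 44407879, minus strand), stood at 10.78, 9.45, 9.94 and 9.07 on HFD and 12.97, 12.57, 12.58 and 13.64 on RC, an 8.73-fold fall (adjusted p = 0.00085). Acss2 and Acly, both sources of acetyl-CoA, fell 2.84-fold and 2.49-fold, Acacb, the mitochondrial acetyl-CoA carboxylase, 2.68-fold, and Dgat2, which closes triglyceride, 1.62-fold. The Acly call was lost without animal 2RC211 (adjusted p = 0.0502). Fasn, the fatty acid synthase, stood at 8.23, 6.65, 6.53 and 6.62 on HFD and 8.20, 8.06, 9.03 and 8.93 on RC. Animal 2HF208 was at the level of the RC livers, and the fall (log2 -1.55, adjusted p = 0.047) was lost without any 1 of 6 of the animals, with the highest adjusted p of 0.124 without animal 2RC210. Srebf1 (log2 -0.53, adjusted p = 0.43) and Mlxipl, the carbohydrate-sensing regulator (log2 -0.18, adjusted p = 0.65), did not pass.

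The RNA of the first enzyme of bile acid synthesis was lower on HFD. Cyp7a1, the rate-limiting 7-alpha-hydroxylase (chromosome 4, 6265612 to 6275633, minus strand), stood at 4.30, 4.24, 4.18 and 4.47 on HFD and 7.38, 7.64, 7.02 and 7.995 on RC, a 9.28-fold fall (log2 -3.21, SE 0.76, adjusted p = 0.0018). Akr1d1, Slc27a5 and Cyp27a1, later enzymes, fell by 1.35, 0.52 and 0.45 on the log2 scale, and Slc10a1, the uptake transporter, fell by 0.53. The exporters Abcb4 and Abcc3 rose, with log2 differences of 0.77 and 0.83. The Abcc3 call was lost without animal 2HF209 (adjusted p = 0.0639) and without animal 2RC209. Of the 20 genes, 5 fell and 2 rose. Cyp8b1 (log2 -0.46, adjusted p = 0.36) and Nr0b2, the repressor SHP (log2 0.16, adjusted p = 0.85), did not pass.

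Of 25 drug-metabolising P450 genes, 10 fell and 1 rose, and the list summed to 15097 to 16695 CPM on HFD against 20990 to 24694 CPM on RC. Cyp3a11, the main hepatic Cyp3a enzyme (chromosome 5, 145854426 to 145879964, minus strand), stood at 9.09, 9.17, 9.02 and 8.58 on HFD and 11.74, 12.48, 11.99 and 12.21 on RC, an 8.8-fold fall (adjusted p = 5.0e-10). Cyp2c55 stood at 1.20, 0.37, 1.15 and 1.17 on HFD and at 4.30, 4.36, 4.32 and 4.28 on RC, a 10.2-fold fall. Cyp2a5, the coumarin hydroxylase, fell 7.6-fold. Por, which feeds electrons to all of these enzymes, fell 2.7-fold, and Nr1i2, the xenobiotic receptor PXR, fell by 0.64. The 1 gene that rose was Cyp2b9 (14.7-fold, adjusted p = 0.013). Its call was lost without animal 2RC208 (adjusted p = 0.0590) and by limma-voom (adjusted p = 0.0518). Cyp2e1 did not pass, at 12.91 to 13.02 on HFD and 12.83 to 12.99 on RC. Cyp3a and Cyp2c genes are families of near copies, so single members are uncertain.

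Of 31 conjugation enzymes and transporters, 7 rose and 7 fell, while over all members 8 estimates were above 0 and 23 below, with a median of -0.24. Ephx1, the microsomal epoxide hydrolase, stood at 9.81, 10.10, 9.80 and 9.79 on HFD and 8.39, 8.55, 8.27 and 8.62 on RC, a 2.67-fold rise (adjusted p = 5.4e-06). Gstm1 rose 2.06-fold. The carboxylesterase gene Ces2a fell 2.47-fold and the organic anion transporter Slco1a4 7.73-fold. The number that fell was 4 without animal 2RC211. Of 15 genes of oxidative and metal stress, 5 rose and none fell: Gclc, the rate-limiting enzyme of glutathione synthesis (2.89-fold), Srxn1 (2.06-fold), Txnrd1 (1.26-fold), the uncoupling protein Ucp2 (2.91-fold) and Nqo1. Nqo1 stood at 4.99 in animal 2HF211 and 2.78 to 3.41 in the other HFD livers against 1.94 to 2.93 on RC, and its adjusted p went from 0.042 to 0.323 without animal 2HF211.

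Of 19 clock genes, 7 fell and 2 rose, and the 4 HFD and 4 RC values did not overlap for 14. Over all genes, 8.7% fell, 7.2% rose and 19% did not overlap. Arntl stood at 3.32, 3.44, 3.11 and 1.96 on HFD and -1.37, -0.51, 0.33 and 0.43 on RC, a 9.43-fold rise (log2 3.24, SE 0.88, adjusted p = 0.0072). By limma-voom on reads recovered from the values, this call was lost (adjusted p = 0.199). Its partner Clock rose 2.66-fold, with 5.31 to 5.80 on HFD and 4.04 to 4.53 on RC. Per1 (chromosome 11, 69095217 to 69109960, plus strand), a repressor of the loop, stood at 3.61, 3.47, 2.69 and 4.32 on HFD and 5.72, 5.37, 5.92 and 5.73 on RC, a 4.47-fold fall (adjusted p = 3.6e-05). Per2 fell 4.52-fold, from 4.87 to 5.39 down to 2.79 to 3.33, and Cry2 fell 2.02-fold.

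Ciart, a further repressor of CLOCK and ARNTL (chromosome 3, 95878503 to 95882251, minus strand), stood at 0.44, 0.51, -0.80 and 1.57 on HFD and 4.82, 4.65, 4.84 and 4.45 on RC, a 19.2-fold fall (log2 -4.27, SE 1.10, adjusted p = 0.0043). The promoters of Per1 and Ciart are shown because both hold the E-box CACGTG, the letters CLOCK and ARNTL bind, and both genes fell. They are the RefSeq (GRCm38.p6) 250 bases before each start, chr11:69098699-69098948, plus strand, and chr3:95882229-95882478, minus strand, with E-boxes in capitals.

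Per1: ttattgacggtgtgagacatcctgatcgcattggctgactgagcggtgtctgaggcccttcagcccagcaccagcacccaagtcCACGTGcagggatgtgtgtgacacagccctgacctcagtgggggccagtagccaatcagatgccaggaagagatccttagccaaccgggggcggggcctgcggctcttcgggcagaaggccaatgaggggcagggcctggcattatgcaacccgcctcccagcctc

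Ciart: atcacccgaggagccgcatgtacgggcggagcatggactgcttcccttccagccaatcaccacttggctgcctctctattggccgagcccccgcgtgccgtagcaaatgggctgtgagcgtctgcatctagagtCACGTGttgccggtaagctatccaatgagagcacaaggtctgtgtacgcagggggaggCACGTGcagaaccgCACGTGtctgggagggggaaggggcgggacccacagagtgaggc

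The E-box is its own reverse complement, so 1 search covers both strands. The Per1 promoter shown held 1 E-box, 161 bases before its RefSeq start. That start lies inside the span given above for the Per1 gene, not at its first base. The Ciart promoter held 3, between 39 and 111 bases before its RefSeq start. Of 21 promoters in the table for 16 clock genes, 6 held an E-box (28.6%), against 6.02% of all promoters. Those genes were Bhlhe41, Ciart, Cry1, Per1 and Tef. The E-box was also in 20% of promoters of the cholesterol list and 16.7% of those of the PPARA-linked list. Its higher share was therefore not particular to the clock list.

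Among output genes of the clock, Tef fell 2.61-fold and Hlf 1.66-fold. The Tef call was lost without 3 of the animals, with the highest adjusted p of 0.0687 without animal 2HF210. Members with wide spread over the liver groups did not pass although the diets did not overlap: Per3 (log2 -2.29, adjusted p = 0.064), Npas2 (log2 2.57, adjusted p = 0.23) and Dbp (log2 -1.75, adjusted p = 0.42). Nr1d1, the repressor of Arntl also called REV-ERB alpha, stood at 7.19, 7.40, 6.75 and 7.30 on HFD and 5.71, 5.75, 6.89 and 5.85 on RC. Animal 2RC210 reached the HFD range, and the gene did not pass (log2 1.11, adjusted p = 0.44). With the spread taken from these 8 livers alone, 11 clock genes fell and 5 rose. The hour at which each liver was taken is not given, so diet and hour cannot be told apart for these genes. Nor can they be told apart for other rhythmic genes named here, such as Usp2 and Noct. The same limit holds where the diet effects of these genes are compared between days and strains below.

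**Figure D4:**
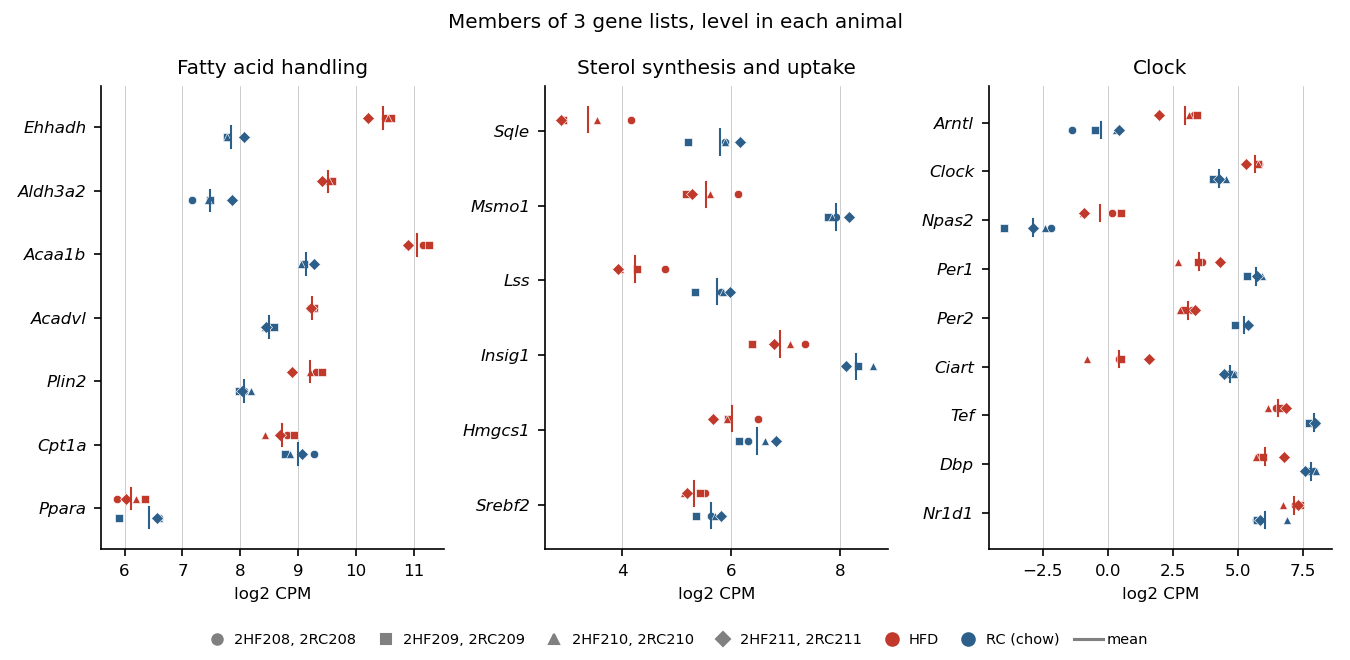
Level (log2 CPM) in each liver of members of the fatty acid, sterol and clock lists, with HFD in red, RC in blue, 1 symbol per animal number and a bar at each mean. Arntl and Clock lie higher on HFD and Per1, Per2 and Ciart lower, while Cpt1a, Ppara, Srebf2 and Hmgcs1 did not pass the test.

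Of 22 genes of glucose production and glycolysis, 10 fell and 1 rose. Pck1, which commits carbon to gluconeogenesis (chromosome 2, 173153048 to 173159273, plus strand), stood at 10.20, 10.24, 10.26 and 10.81 on HFD and 12.10, 11.84, 11.90 and 12.06 on RC, a 3.03-fold fall (adjusted p = 0.00036). Fbp1, also of gluconeogenesis, fell 1.52-fold, and Pklr, the pyruvate kinase of glycolysis, 2.5-fold. The transporters Slc37a4, which brings glucose 6-phosphate into the endoplasmic reticulum, and Slc2a2, the hepatocyte glucose transporter, fell 2.24-fold and 1.83-fold. G6pc (log2 -0.07, adjusted p = 0.93) did not pass. The 1 gene that rose was Ppp1r3c, a glycogen-targeting subunit (2.98-fold, adjusted p = 0.027). It was lost without 4 of the animals, with the highest adjusted p of 0.0909 without animal 2RC211.

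Of 33 genes of amino acid breakdown and the urea cycle, 16 fell and 2 rose. Prodh, which starts proline breakdown (chromosome 16, 18060357 to 18090203, minus strand), stood at 6.27, 6.40, 6.14 and 6.27 on HFD and 7.67, 7.97, 8.03 and 8.31 on RC, a 3.31-fold fall (SE 0.17 on the log2 scale, adjusted p = 2.2e-10). The urea cycle enzymes Cps1, Ass1 and Asl fell 2.43-fold, 3.19-fold and 2.84-fold, Gls2, the liver glutaminase, 2.09-fold, and Tat, which breaks down tyrosine, 2.99-fold. The 2 that rose are enzymes of synthesis. Psat1, of serine synthesis, stood at 1.13, 3.23, 1.78 and 3.29 on HFD and -1.22, -1.60, 0.04 and -0.47 on RC, a 9.0-fold rise (adjusted p = 1.1e-05). Asns, which makes asparagine, stood at 0.05, 1.79, 0.53 and 2.56 on HFD and -2.19, -0.75, -2.11 and -1.37 on RC, a 7.15-fold rise (adjusted p = 0.00027). In both genes animals 2HF209 and 2HF211 were the highest. Both had few reads on RC, 6 to 23 for Psat1 and 5 to 11 for Asns.

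Immune genes moved in more than 1 direction. Of 33 interferon-stimulated genes, 10 fell and none rose. Irf7, the transcription factor that amplifies the interferon response (chromosome 7, 141262706 to 141266481, minus strand), stood at 4.21, 4.54, 4.47 and 4.83 on HFD and 5.65, 5.82, 5.35 and 5.48 on RC, a 2.09-fold fall (adjusted p = 6.7e-06). Oasl1, of the oligoadenylate synthetase-like family, fell 2.14-fold, and the proteasome subunit Psmb8 1.58-fold. The count that fell was 5 without animal 2HF208 or animal 2RC209 and 6 without animal 2HF209, animal 2RC210 or animal 2RC211, and it was 2 when only genes of at least median level were tested. Of 34 complement and coagulation genes, 11 fell and 1 rose. C2 fell 2.24-fold, with 4.03 to 4.28 on HFD and 5.26 to 5.50 on RC, C1s1 1.44-fold, F7 1.61-fold and Serpinc1, the antithrombin gene, 1.37-fold, and Mbl1, a lectin that starts complement, rose (log2 0.58), a call lost without 2 of the animals (highest adjusted p = 0.0591, without animal 2RC211). The number that fell was 7 without animal 2HF211. Of 21 acute phase genes, the orosomucoid genes Orm3 and Orm1 fell, 7.38-fold and 2.13-fold. This count was near the share that fell over all genes (8.7%). The Orm1 call was lost without any 1 of 7 of the animals, with the highest adjusted p of 0.130 without animal 2RC209.

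The rise in class II antigen presentation genes rested on single livers. Of 6 measured genes, H2-Eb1, Cd74, H2-Ab1 and H2-Aa rose. H2-Eb1 stood at 3.43, 3.68, 3.93 and 5.02 on HFD and 3.76, 2.33, 2.80 and 2.93 on RC. Animal 2HF211 was highest and animal 2RC208 lay inside the HFD range. The list summed to 218 CPM in animal 2HF211, 81.7 to 89.7 CPM in the other HFD livers and 43.2 to 84.9 CPM on RC. No class II gene passed without animal 2HF211, without animal 2RC209, or with the spread taken from these 8 livers alone. The same HFD liver had the high cholangiocyte and lymphocyte markers given above, whose part in this result was not tested.

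Of 26 liver hormones and binding proteins, Serpina7 and Fgf21 rose and 4 fell, among them Igf1, the growth hormone-dependent growth factor (1.57-fold). Over all genes, 7.2% rose and 8.7% fell. The counts that rose in the lists of this paragraph were near or below that share. Of 19 lipid-sensing receptors and coactivators, 4 fell and none rose. They were Ppargc1a, a coactivator of oxidation and gluconeogenesis (2.74-fold), Nr1i2, Esrra and Ppargc1b, and the count was 2 without animal 2HF208. Of 19 insulin and growth hormone signalling genes, Foxo3 (1.9-fold), Ghr, the growth hormone receptor (1.49-fold), and Foxo1 fell and Irs1 rose. Calls lost when some single animal was left out were those of Ppargc1b (6 of 8 animals), Irs1 (4), Esrra (3) and Foxo1 (2), with highest adjusted p of 0.164, 0.14, 0.142 and 0.0760. Of 20 genes of endoplasmic reticulum stress, 1 rose, the translation-control factor Atf4 (1.47-fold, adjusted p = 0.0023), while the chaperone Hspa5 did not pass (log2 0.01, adjusted p = 0.98). None of the 22 major urinary protein genes, which are near copies, passed.

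Zone markers of the lobule changed on both sides. Of 10 portal genes, 5 fell and 1 rose, led by Aldh1b1, a mitochondrial aldehyde dehydrogenase (4.41-fold lower). Of 12 central genes, 5 fell and none rose, led by the glutamate transporter Slc1a2 (2.08-fold lower), while Glul, the glutamine synthetase of the cells next to the central vein, did not pass, at 9.22 to 9.36 on HFD and 9.20 to 9.55 on RC. Among 16 Kupffer cell and macrophage markers, Cd9 rose and Mpeg1 fell, and the list summed to 258.1 to 343 CPM on HFD and 222 to 335 CPM on RC. Neither count exceeded the share over all genes (7.2% rose and 8.7% fell). None of 18 stellate and matrix genes, 14 endothelial markers or 6 cholangiocyte markers passed, nor did the 1 measured neutrophil or the 1 measured pancreas and gut marker. In each of 4 further lists, at most 2 genes passed in a direction: cell cycle (1 of 19 higher, 1 lower), early stress genes (1 of 12 higher, 2 lower), erythroid genes (1 of 5 lower) and T, natural killer and B cell markers (1 of 4 lower). Each of these counts was 0 under at least 1 of the alternatives tried.

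To ask whether the day-33 response differed from that of earlier days, the diet effect at day 33 was tested against that at days 5 and 13, over separate animals. Each of these differences uses the 8 day-33 livers, so they are not independent of each other. Against day 5, the effect differed for 20 genes (0.159%), 7 higher (0.0555%) and 13 lower (0.103%). At an unadjusted p under 0.05 the count was 1393, and by limma-voom on reads recovered from the values it was 16. With quantile normalisation 18 were higher and 21 lower. On its own, day 5 had 433 genes higher on HFD (3.43%) and 446 lower (3.54%), and day 13 had 100 higher (0.793%) and 141 lower (1.12%).

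The fatty acid genes had also responded at day 5: 16 of 25 PPARA-linked genes, 14 of 23 peroxisomal genes and 16 of 20 mitochondrial genes rose at that day, and no member of these lists differed between days 33 and 5. Ehhadh had a log2 effect of 3.43 at day 5 and 2.62 at day 33, and Cyp4a10 of 7.31 and 6.02. The sterol list was different in its counts, with 0 of 25 genes past the threshold at day 5, at a median of -0.05, and 20 lower at day 33. No sterol gene passed the test of the difference itself between these days. Msmo1, for one, had a log2 effect of -0.47 at day 5 and -2.38 at day 33.

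Among the genes whose effect was higher at day 33 than at day 5 were Atf5, a transcription factor of the amino acid and stress response, and Cars and Gars, the cysteine and glycine tRNA synthetases. Atf5 stood at 9.29, 9.76, 9.01 and 9.28 on HFD and 7.48, 7.67, 7.84 and 7.71 on RC at day 33, an effect of 1.66 (SE 0.20), against 0.26 at day 5, a difference of 1.40 (adjusted p = 0.020). Bpgm, a red-cell glycolytic mutase, had a difference of 0.83, Cars of 0.98 and Gars of 0.52. Among genes of at least median level, the effects lower at day 33 were led by Mfsd2a, a transporter of lysophospholipids (difference -3.10), followed by the arginine and serine-rich protein gene Rsrp1 (-1.52), the centriole gene Cntrl (-1.19) and the RNA helicase gene Ddx5 (-0.77). Mfsd2a stood at 4.93, 4.22, 3.94 and 4.15 on HFD and 6.40, 6.54, 6.19 and 6.92 on RC at day 33, with an effect of -2.20, while its effect at day 5 was 0.90. All 8 of these differences lost their call when some single library was left out, from 2 of 16 for Atf5 (highest adjusted p = 0.0735) to 12 of 16 for Cntrl (highest adjusted p = 0.173). The count of 20 itself moved by more than 1.5 times without any 1 of 13 of the 16 libraries, from 3 without day-5 animal 2HF201 to 47 without day-33 animal 2RC209.

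Against day 13, the effect differed for 319 genes (2.53%), 113 higher (0.896%) and 206 lower (1.63%). Of the cholesterol genes, 11 of 25 had a lower effect at day 33 than at day 13, and none a higher one. Msmo1 had a log2 effect of -0.01 at day 13 and -2.38 at day 33, a difference of -2.37 (adjusted p = 0.016). Of the mitochondrial genes 6 of 20, and of the PPARA-linked genes 4 of 25, had a higher effect at day 33, and 1 PPARA-linked gene a lower one. Ehhadh had an effect of 0.13 at day 13, below that of day 33 by 2.49 (adjusted p = 0.0043), although day 5 had stood at 3.43. Acot1 differed by 3.15 (adjusted p = 0.012, and 0.067 by voom) and Cyp4a10 by 4.91 (adjusted p = 0.042), a call lost without 12 of the 16 libraries and by voom (adjusted p = 0.069). Smad9, a mediator of bone morphogenetic protein signals, differed by 2.15, with an effect of -1.32 at day 13 and 0.83 (adjusted p = 0.089) at day 33.

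Among genes of at least median level, the widest differences downward from day 13 to day 33 were in Thrsp (-4.98), Lpin1, a phosphatidate phosphatase (-3.76), Mfsd2a (-3.72) and Noct (-3.62). Thrsp had an effect of 0.07 at day 13 and -4.92 at day 33. Lpin1 had effects of 1.80 and -1.95 (the latter with adjusted p = 0.0517 by limma-voom), and its difference was lost without day-13 animal 2HF230 (adjusted p = 0.0543). Of the glucose genes, 8 of 22 had a lower effect at day 33 than at day 13. The count of 319 was 190 without day-13 animal 2HF230, 212 without day-13 animal 2RC230 and 713 with the spread taken from the 16 livers compared.

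To ask whether DBA/2J responded differently from the other strains at the same day, its diet effect was tested against that of C57BL/6J and of BALB/cJ. GRCm38, the C57BL/6J genome, is the only build named in the submitters' processing notes for all 3 strains. Against C57BL/6J, the effect differed for 496 genes (3.93%), 185 higher (1.47%) and 311 lower (2.47%). On its own, C57BL/6J had 43 genes higher on HFD (0.341%) and 72 lower (0.571%). PPARA-linked genes had a higher effect in DBA/2J for 5 of 25 and a lower one for none, and so did 7 of 23 peroxisomal and 5 of 20 mitochondrial genes. Ehhadh had an effect of 0.48 in C57BL/6J, below that in DBA/2J by 2.14 (adjusted p = 0.010). Cyp4a10 differed by 4.75 and Fgf21 by 3.30, calls lost without 11 and 10 of the 16 libraries (highest adjusted p = 0.125 and 0.141). Serpina7 rose in DBA/2J and had an effect of -0.17 in C57BL/6J (difference 2.70, adjusted p = 0.011, and 0.063 with the spread taken from the 16 livers compared).

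Of 19 clock genes, 4 had a lower effect in DBA/2J than in C57BL/6J and 1 a higher one. Per1 had an effect of 0.36 in C57BL/6J and -2.16 in DBA/2J (difference -2.52, adjusted p = 0.0028), and Per2 of 0.38 and -2.18 (difference -2.56, adjusted p = 0.0068). Nr1d1 differed by 4.07 (adjusted p = 0.048), with -2.96 in C57BL/6J and 1.11 in DBA/2J, of which neither passed on its own. That call was lost without 13 of the 16 libraries. No hour of collection is given for either strain, so strain and hour cannot be told apart for these clock genes. Noct differed by -3.66, Thrsp by -3.63, Usp2 by -3.27 and Mfsd2a by -3.10. The Usp2 call was lost without 13 of 16 libraries and by voom (adjusted p = 0.054), and the Thrsp call without 1 of 16. Interferon-stimulated genes had a lower effect in DBA/2J for 11 of 33, Irf7 by 1.32 on the log2 scale. The count of 496 was 265 without C57BL/6J animal 1RC211 and 307 without C57BL/6J animal 1HF257.

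Against BALB/cJ, the effect differed for 740 genes (5.87%), 338 higher (2.68%) and 402 lower (3.19%), and on its own BALB/cJ had 589 genes higher on HFD (4.67%) and 621 lower (4.92%). Of the mitochondrial oxidation genes, 15 of 20 effects were higher in DBA/2J, as were 12 of 25 PPARA-linked and 11 of 23 peroxisomal ones, and none was lower. Acadvl had an effect of -0.01 in BALB/cJ, below that in DBA/2J by 0.76. Cyp4a14 differed by 7.65 (adjusted p = 0.0060), Cyp4a10 by 6.17, Acot1 by 4.27 and Fgf21 by 3.11. The Fgf21 call was lost without 13 of the 16 libraries, and none of the other 3 was lost without any 1 library.

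Among genes of at least median level, lower effects in DBA/2J than in BALB/cJ were led by Thrsp (-3.34), Arrdc3, a gene with arrestin domains (-2.55), the organic anion transporter Slc22a7 (-2.13) and Fam47e (-1.97). Arrdc3 rose in BALB/cJ with an effect of 2.95 and had 0.40 in DBA/2J (adjusted p = 0.64). Its call was lost without 4 of 16 libraries (highest adjusted p = 0.0699) and that of Thrsp without 2. Interferon-stimulated genes differed for 13 of 33, all lower in DBA/2J. In BALB/cJ 10 of the 33 rose, and in DBA/2J 10 fell. The count of 740 was 328 without BALB/cJ animal 3RC209, 369 without BALB/cJ animal 3HF258, 433 without DBA/2J animal 2RC210, 472 without BALB/cJ animal 3RC208 and 491 when only genes of at least median level were tested.

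Other responses were not shown to differ between the strains. Of the 25 sterol genes, 1 had a lower effect in DBA/2J than in C57BL/6J and 2 a lower effect than in BALB/cJ, where 4 fell. The Msmo1 effect of -2.38 was not shown to differ from -1.05 in C57BL/6J (adjusted p = 0.22) or -1.09 in BALB/cJ (adjusted p = 0.19). Cyp3a11 fell in all 3 strains at day 33 and at days 5 and 13 in DBA/2J, by 1.45 at day 5, 2.45 at day 13, 2.33 in C57BL/6J and 2.45 in BALB/cJ on the log2 scale. The difference from DBA/2J at day 33 was -1.69, -0.69, -0.80 and -0.69, and none passed. Of the 25 P450 genes, none differed from days 5 or 13 or from C57BL/6J, and 1 differed from BALB/cJ. Cyp7a1 had log2 effects of -2.87 at day 5, -2.03 at day 13, -0.80 in C57BL/6J and -1.95 in BALB/cJ, and none of the 4 differences passed. Ephx1 ran the other way, with effects of 1.44 at day 5, -0.43 at day 13, -0.24 in C57BL/6J and -0.32 in BALB/cJ. Its day-33 DBA/2J effect of 1.42 was higher than all of these except day 5, by 1.85, 1.66 and 1.74.

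**Figure D5:**
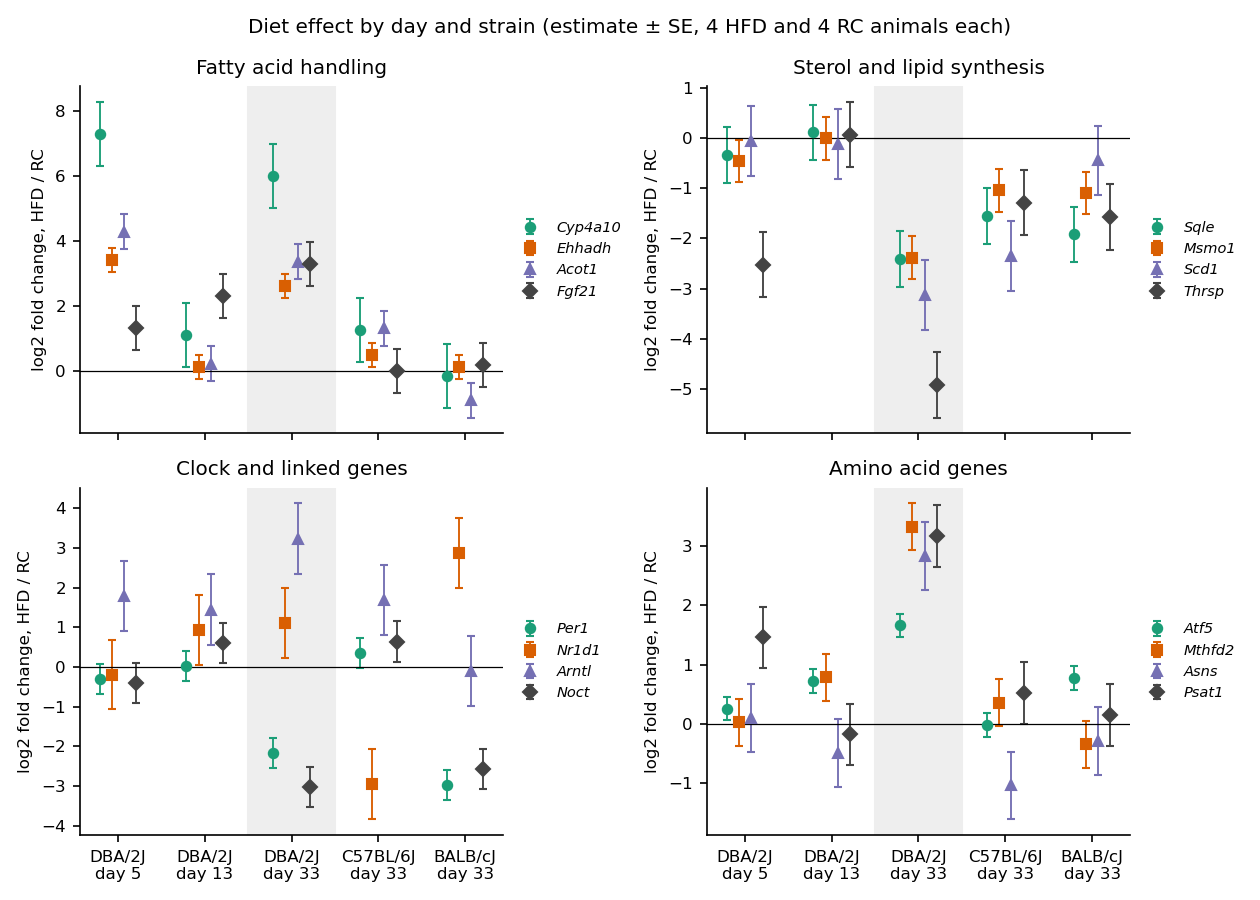
Log2 fold change, HFD over RC (estimate and SE, 4 livers per diet), of 16 genes in DBA/2J at days 5, 13 and 33 and in C57BL/6J and BALB/cJ at day 33, with the day-33 DBA/2J column shaded. Ehhadh and Cyp4a10 are high at days 5 and 33 in DBA/2J, Msmo1 is at -2.38 in DBA/2J and -1.09 in BALB/cJ at day 33, and Asns, Psat1 and Mthfd2 are at 2.84, 3.17 and 3.33 in day-33 DBA/2J.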

How the data were processed

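The deposited liver table holds log2 CPM values for 12611 genes. Per the submitters' processing notes, the authors used STAR 2.5.3a, GRCm38 and edgeR. Per the labels' protocols, libraries were stranded poly(A) RNA-seq of 250 ng total RNA, read as single reads of 100 bases. The header of the table lacks a cell, so each title names the column to its right. From the values, a prior count of 0.25 reads in the mean library had been added (0 reads gives -6.63), which understates folds of low genes. Reads taken back from the values were whole in 100% of cases (within 0.05 read, under 2000 reads), and the 72 liver libraries held 18.1 to 32.0 M reads.

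A limma 3.58.1 model with a variance trend (R 4.3.3) was fitted to 18 group means (strain, diet and day) over these 72 libraries, with 54 residual degrees of freedom and two-sided tests. P-values were adjusted by Benjamini-Hochberg over all 12611 genes, with a threshold of 0.05. A filter of log2 CPM of at least 0 in 4 libraries left out 0 genes. A table in a log2 unit does not allow a count test as the main test, so limma-voom on the recovered reads was an alternative. It called 1907 genes against 2005. A single-gene exact permutation test of 4 against 4 animals cannot give a p below 0.0286. The fit was tested on simulated data.

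The comparison, its 40 gene lists (27 pathway, 13 marker) and the tests were chosen with earlier results of these data known. Named genes had at least the median mean level of tested genes and no predicted, clone or pseudogene symbol. For the day-33 comparison they were the 12 highest and 12 lowest called fold changes whose diets did not overlap, for each difference the 4 highest and 4 lowest called estimates, and for each list up to 5 members of smallest p plus members whose role the text needs. Gene positions come from GENCODE M21, which matched 12602 of 12611 identifiers. Promoters are the 250 bases before each RefSeq start. Other settings tried were genes of at least median level, quantile normalisation, a prior of 2 reads, no variance trend, only the animals compared, a block for animal number, and each library left out. The 8 liver libraries without a column were not analysed here. Some genes that these rules name are not reported here.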

Additional observations from a re-analysis of the deposited data

Results flagged for a closer look

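In 348 groups of 4 livers (174 named genes, 2 diets), 26 single values lay apart from the other 3 (Dixon's test at the 95% level). Chance sets a value apart in about 1 group in 20 when groups are independent, and here 7.47% had one. The groups share the same 8 livers, and some genes were named after their values were seen. These shares therefore cannot be compared as a test. Animal 2HF211 gave 10 of the 26 values: Krt19 at 5.63, Epcam at 5.59, Cd74 at 6.56, Cry1 at 2.38, Noct at 3.78, Pck1 at 10.81, Mttp at 8.70, Clock at 5.31, Hsd17b11 at 8.84 and Iapp at -2.73 log2 CPM. Animal 2HF210 was apart for Apoc3 (10.58), Glul (9.22) and G6pc (7.94). Animal 2HF208 was apart for Acly (7.52) and Fasn (8.23), where it was the highest HFD liver. Animal 2HF209 was apart for Cyp2c55 (0.37) and Ephx1 (10.10). Among RC livers, animal 2RC209 was apart for Mthfd2 (-2.56), Ppara (5.91), Gars (5.73) and Per2 (4.87). Animal 2RC211 was apart for Ehhadh (8.06) and Aldh1l1 (11.03), animal 2RC210 for Nr1d1 (6.89) and Bhlhe41 (2.54), and animal 2RC208 for Acox2 (7.35).

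The difference of the diet effect between groups was tested itself in the following results. From day 5 to day 33 the effect differed for 20 genes. It was higher at day 33 for Atf5 (1.40 on the log2 scale), Cars (0.98), Bpgm (0.83) and Gars (0.52), and lower for Mfsd2a (-3.10), Rsrp1 (-1.52), Cntrl (-1.19) and Ddx5 (-0.77). From day 13 it differed for 319 genes, higher for Cyp4a10 (4.91), Acot1 (3.15), Ehhadh (2.49) and Smad9 (2.15), and lower for Thrsp (-4.98), Lpin1 (-3.76), Mfsd2a (-3.72) and Noct (-3.62). Between DBA/2J and C57BL/6J it differed for 496 genes, higher for Cyp4a10 (4.75), Nr1d1 (4.07), Fgf21 (3.30) and Serpina7 (2.70), and lower for Noct (-3.66), Thrsp (-3.63), Usp2 (-3.27) and Mfsd2a (-3.10). Between DBA/2J and BALB/cJ it differed for 740 genes, higher for Cyp4a14 (7.65), Cyp4a10 (6.17), Acot1 (4.27) and Fgf21 (3.11), and lower for Thrsp (-3.34), Arrdc3 (-2.55), Slc22a7 (-2.13) and Fam47e (-1.97).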

How the results depend on the processing

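Over 112 recounts of the 5 comparisons, 85 stayed within 1.5 times the reported count. Restricted to genes at or above the median level, the counts were 1330 for day 33, 5 against day 5 and 491 against BALB/cJ, over fewer genes. Quantile normalisation gave 39 genes against day 5. When each fit used just its own animals, 100 genes differed from day 5 and 713 from day 13, and the cause was not tested. Leaving out 1 library gave 1537 to 1866 genes for day 33, 3 to 47 against day 5, 190 to 351 against day 13, 265 to 648 against C57BL/6J and 328 to 990 against BALB/cJ. Deviations from the group means had correlations of -0.43 to 0.18 between animals with the same number and -0.32 to 0.38 between different numbers. No shared deviation by number was seen, but so few pairs cannot exclude a pairing. With the number as a block, the counts were 2270 for day 33, 16 against day 5, 346 against day 13, 601 against C57BL/6J and 966 against BALB/cJ. Of 3521 estimates of named genes, 9 changed sign, for 6 genes that had not passed: Glul at 0.0403 with quantile normalisation, and, over the libraries left out, Krt19 between -0.0582 and 1.67, Hspa5 between -0.15 and 0.14, Nr0b2 between -0.0106 and 0.46, Acot4 between -0.22 and 0.0158 and G6pc between -0.19 and 0.15. Of the others, 284 lost a call and 20 gained one. Of 1280 list counts, 135 moved by more than 1.5 times. At 18.8 to 24.4 M reads, some genes had few reads in some livers. Npas2 had 10 to 32 reads on HFD and 1 to 5 on RC, and Ciart had 11 to 63 and 473 to 675. Cyp2c55, with 29 to 58 reads on HFD and 386 to 472 on RC, had a lower adjusted p (1.0e-08) than Ciart (0.0043) in the day-33 limma test. The part of low reads in the wide errors of Npas2 and Ciart was not tested.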

Other observations

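The gene groups in this section were put together after the values had been seen, so their counts are descriptions. Over all tested genes, 7.2% rose and 8.7% fell at day 33 in DBA/2J. Of 20 cytosolic aminoacyl-tRNA synthetase genes, which load amino acids onto tRNA, 11 rose at day 33 in DBA/2J on HFD and none fell, with a median log2 difference of 0.333. In the other comparisons of HFD with RC, 1 rose at day 5, 1 at day 13, and none in C57BL/6J or BALB/cJ at day 33. Against C57BL/6J, the diet effect of DBA/2J was higher for 6 of the 20, and against BALB/cJ for 6. When the difference between days was tested itself, 2 of the 20 were higher than at day 5 (Cars and Gars). Only Gars (1 of the 20) was higher than at day 13, so most of the 20 were not shown to differ between days. Mthfd2, the mitochondrial folate enzyme that supplies formyl groups, stood at 1.93, 3.15, 1.85 and 3.18 log2 CPM in animals 2HF208 to 2HF211 and at -0.31, -2.56, -0.16 and -0.17 in animals 2RC208 to 2RC211. All HFD livers lay above all RC livers, and the gene rose by 3.33 on the log2 scale (SE 0.39, adjusted p = 8.4e-09). Its effect was higher than at day 5 (difference 3.30), than at day 13 (2.54), than in C57BL/6J (2.96) and than in BALB/cJ (3.67). None of these 4 calls was lost without any 1 of the 16 libraries compared.

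Among 24 measured genes of methyl and folate metabolism, 12 fell and 2 rose. Aldh1l1, the cytosolic formyltetrahydrofolate dehydrogenase, stood at 9.79, 9.42, 9.18 and 9.07 on HFD and 10.62, 10.66, 10.67 and 11.03 on RC, a 2.6-fold fall. Gnmt, which uses up the methyl donor S-adenosylmethionine, fell by 1.46 on the log2 scale, and Bhmt, which remakes methionine from betaine, fell by 1.72. Of 31 proteasome subunit genes other than the interferon-inducible ones, 15 rose and none fell, with a median of 0.259, while 3 of 5 interferon-inducible proteasome genes fell. Psmd4, the ubiquitin receptor of the proteasome, rose by 0.58 (adjusted p = 2.8e-06). Slc46a3, a lysosomal transporter, had 1 of the tightest pairs of diets, at 4.54, 4.43, 4.55 and 4.44 on HFD and 6.56, 6.66, 6.51 and 6.67 on RC (adjusted p = 7.6e-12).

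Reads of some islet and fat cell genes, picked after their values were seen, varied between livers. Ins2, a mouse insulin gene, had 0 reads in all 4 HFD livers and 16, 59, 142 and 95 reads in animals 2RC208 to 2RC211. Iapp, the islet amyloid gene, had 0, 0, 0 and 3 reads on HFD and 10, 42, 82 and 72 on RC. Both genes passed the test as lower on HFD, Ins2 by 8.07 on the log2 scale (adjusted p = 0.00082) and Iapp by 6.51 (adjusted p = 0.0063). Neither call was lost without any 1 of the 8 animals. Values at 0 reads are set by the added prior count, so the size of these falls is uncertain. Ins2 also varied within other liver groups, from -6.63 to 0.97 log2 CPM in day-5 DBA/2J livers on HFD. In day-33 BALB/cJ livers on RC it ranged from -6.63 to 3.04. The Ins2 effect was lower at day 33 than at day 5 (difference -10.84, adjusted p = 0.043), a call lost without 12 of the 16 libraries. Adipoq, the adiponectin gene of fat cells, had 1, 2, 22 and 18 reads on HFD and 25, 19, 305 and 120 on RC. Its diets overlapped, and none of the 6 adipocyte markers passed the test. Ins2, Iapp and Adipoq were each highest in animals 2RC210 and 2RC211. In animal 2HF211, Epcam and Krt19, markers of bile duct cells, had 1031 and 1057 reads, against 18 to 27 and 32 to 41 in the other 7 livers.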
